A study of Mus musculus with 4 samples.

Results

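Type I interferon-stimulated genes are a set of 38 genes chosen by symbol from a list, and 37 of them had a row in the count matrices (Mx2 had none). They were followed in tumour-infiltrating immune cells of C57BL/6 mice, taken from brain tumours at the symptomatic stage and profiled as single cells. The tumours came from an engineered glioma model, with 2 libraries from tumours expressing wild-type IDH1 (called wtIDH1) and 2 from tumours expressing the mutant (called mIDH1). Isocitrate dehydrogenase 1, the product of IDH1, belongs to central metabolism, and its glioma mutant produces the metabolite D-2-hydroxyglutarate. The labels give no other allele, no age or sex, no gate for the immune cells and no statement of whether a library is 1 animal or a pool. Among 13197 kept cells the 37 genes held 697459 of the UMIs (unique molecular identifiers, which count RNA molecules), or 0.795% of all.

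Type I interferons are secreted proteins that nearly every cell can sense through the receptor pair Ifnar1 and Ifnar2. The receptor's kinases activate a factor complex that includes Stat2 and Irf9 and binds the interferon-stimulated response element (ISRE) in the promoters of many genes described here. The products block viruses at many steps: Ifit proteins bind foreign RNA, Oas enzymes start RNA decay, Rsad2 (viperin) makes a chain-terminating nucleotide from the product of nearby Cmpk2, Ddx58 (RIG-I), Ifih1 (MDA5) and Dhx58 sense double-stranded RNA, and Isg15 is a ubiquitin-like tag that Herc6 attaches and Usp18 removes. Many of these genes also answer to interferon gamma, so their level does not tell the ligands apart.

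The ISRE letters could be read in the members' promoters. Of the 37 measured genes 28 had a promoter in the RefSeq table (GRCm38.p6, 250 bases before to 50 after the start), and 19 of these, or 67.9%, held the ISRE core letters (GAAA, any 2 bases, GAAA) on either strand, against 3.99% of 27025 genes. 8 members held at least 2 matches, counting overlapping ones, against 0.266% of all genes. The motif linked to interferon gamma (TTC, any 3 bases, GAA, the same on both strands) was present in 7 members (25.0%) and in 9.55% of all genes. The stretches of Isg15, Rsad2 and Ifit1 are printed because these genes carry the comparisons that follow, on the strand of the gene, with every ISRE match in capitals.
Isg15: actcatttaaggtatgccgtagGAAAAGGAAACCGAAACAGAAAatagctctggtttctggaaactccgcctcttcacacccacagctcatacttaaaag
Rsad2: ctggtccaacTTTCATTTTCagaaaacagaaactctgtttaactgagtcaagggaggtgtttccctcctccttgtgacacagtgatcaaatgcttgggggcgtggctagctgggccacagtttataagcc
Ifit1: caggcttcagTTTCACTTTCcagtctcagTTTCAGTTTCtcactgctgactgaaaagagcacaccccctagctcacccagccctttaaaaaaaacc
The Isg15 stretch (chr4:156200819-156200918, minus strand) holds 3 overlapping matches, the Rsad2 stretch (chr12:26456453-26456582, minus strand) holds 1 in the reverse direction, and the Ifit1 stretch (chr19:34640775-34640870, plus strand) holds 2. All lie just upstream of the annotated first base of the gene. The windows of 9 members, Ifit2, Isg20, Cmpk2, Oasl1, Oasl2, Ifi44, Ifi35, Herc6 and Xaf1, held no such letters. A match is a description of letters, not of binding.

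Values are given throughout in the order replicate 1, replicate 2. The wtIDH1 libraries kept 3057 and 2980 cells with median depths of 4959 and 4869 UMIs, the mIDH1 libraries kept 3653 and 3507 cells with 3371 and 2700 UMIs, and any pair shared 6 to 25 barcodes. Cells were clustered without the members and gated on marker genes into 8 classes holding 10450 cells: CD4 T, CD8 T, NK, monocyte, macrophage, microglia, neutrophil and dendritic cells, where each name means cells like that type by their markers. The smallest sum was 68 CD4 T cells, in mIDH1 replicate 2. The neutrophil list of 14 markers gave 45405 to 137051 UMIs per 1000000 UMIs of the class (CPM, the unit of every level here) in neutrophils, and the T cell list gave 5929 to 7039 CPM in CD4 T cells. Genotypes differed in the makeup or the cell number of some classes. The macrophage cluster led by Gpnmb and Apoe held 420 and 511 cells in wtIDH1 and 105 and 39 in mIDH1, and neutrophils numbered 115 and 205 in wtIDH1 and 1121 and 1791 in mIDH1. The monocyte cluster led by Ace and Ear2 held 84 of 692 and 82 of 467 monocytes in wtIDH1. In mIDH1 it held 100 of 272 and 108 of 271. The T cell cluster with Mki67 and Top2a held 36 of 148 and 70 of 237 CD8 T cells in wtIDH1. In mIDH1 it held 50 of 313 and 13 of 131.

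The wtIDH1 libraries differed from each other in these genes. wtIDH1 replicate 1 had a higher CPM over the members than wtIDH1 replicate 2 in all 8 classes, by 1.08-fold in CD4 T cells, 1.40-fold in microglia, 1.54-fold in CD8 T cells, 1.72-fold in dendritic cells, 1.73-fold in NK cells, 1.75-fold in monocytes, 2.005-fold in macrophages and 2.38-fold in neutrophils. It was the highest of the 4 libraries for 36 of 37 members in dendritic cells, 31 of 37 in monocytes, 29 of 37 in macrophages and 29 of 36 in neutrophils, where 29.3, 26.3, 26.8 and 32.3% of all tested genes were highest in it. The mIDH1 libraries differed from each other by 0.86-fold to 1.21-fold. Each genotype comparison of a class is therefore given with and without wtIDH1 replicate 1. Which wtIDH1 library is the unusual one cannot be told, so the values without replicate 1 are not the truer ones.

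Myeloid cells mostly held the higher levels. Summed over the 37 genes, neutrophils stood at 20605 and 8674 CPM in wtIDH1 and at 14991 and 12353 in mIDH1. Monocytes stood at 17216 and 9821 CPM in wtIDH1 and at 13970 and 13280 in mIDH1. Macrophages held 10023 and 5000 against 8588 and 10026 CPM, dendritic cells 12544 and 7313 against 8011 and 8370 CPM, and microglia 8647 and 6159 against 6938 and 6630 CPM. In these 5 classes the genotypes overlapped in this sum. Lymphocytes were lower than the myeloid classes of their own library, except that CD4 T cells of wtIDH1 replicate 2 lay above its macrophages. CD4 T cells held 5839 and 5410 against 4510 and 3718 CPM, CD8 T cells 3815 and 2474 against 2356 and 2292 CPM, and NK cells 2953 and 1706 against 1724 and 1431 CPM. Both wtIDH1 libraries lay above both mIDH1 libraries in CD4 T and CD8 T cells, and the wtIDH1 libraries lay closer to each other in CD4 T cells. Without Ifitm3, Bst2 and Ifi27l2a the same order also held in 3 other classes. These were NK cells (2745 and 1588 against 1570 and 1272 CPM), dendritic cells (9010 and 5076 against 4444 and 3819 CPM) and microglia (5500 and 4416 against 4209 and 3294 CPM). Monocytes, macrophages and neutrophils still overlapped.

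**Figure D1:**
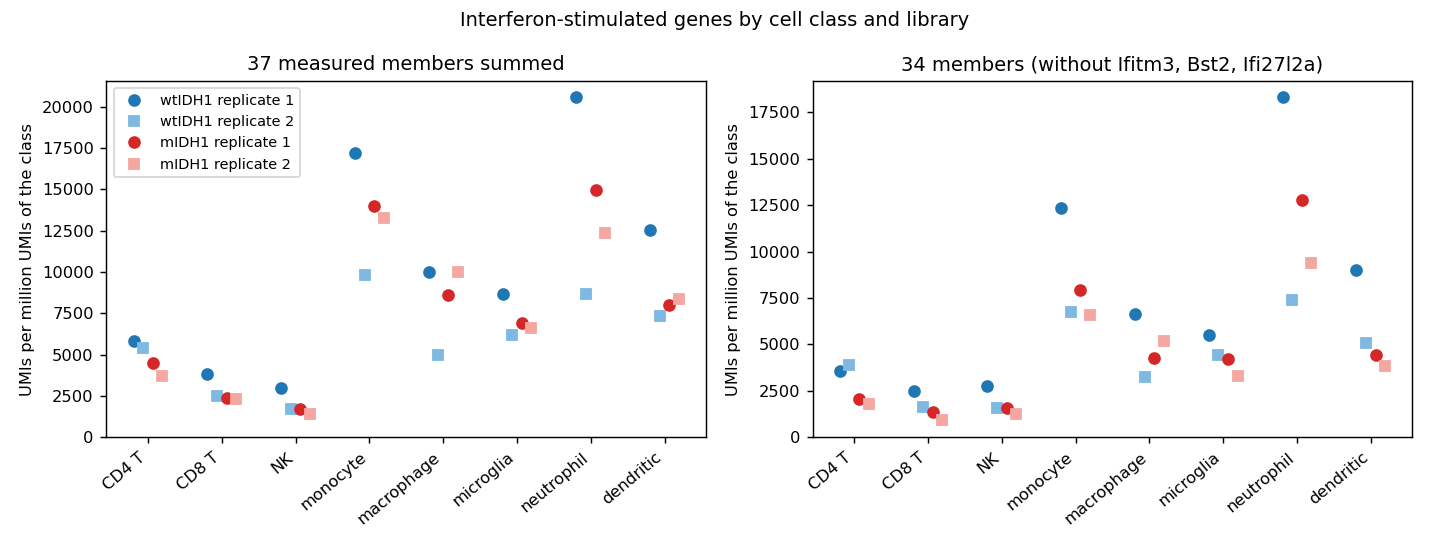
Summed level of the members in CPM (y axes, from 0), by cell class (x axes), with 1 point per library; the left panel sums 37 genes and the right panel leaves out Ifitm3, Bst2 and Ifi27l2a. wtIDH1 replicate 1 is the highest point of the right panel in every class but CD4 T cells, where both wtIDH1 libraries (3549 and 3898) lie above both mIDH1 libraries (2064 and 1769). Both wtIDH1 points of the right panel also lie above both mIDH1 points in CD8 T, NK, microglia and dendritic cells.

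A few genes made up much of these sums, with shares given over the UMIs of all 4 libraries pooled. Ifitm3, a membrane protein that blocks virus entry, gave 22.3% of member UMIs in macrophages, 22.6% in dendritic cells, 18.7% in monocytes and 16.03% in microglia. Ifi27l2a, a small interferon-induced membrane protein, gave 31.9% in CD4 T cells and 29.0% in CD8 T cells. NK cells had another order, led by Trim30a (14.1%), Ifi203 (12.5%) and Slfn8 (7.48%), and their Ifi27l2a and Ifitm3 stood at only 13.2 to 36.5 and 33.9 to 57.2 CPM. In neutrophils Ifitm3 gave 14.2%, Rsad2 14.1% and Isg15 11.3%, but the order depended on the library. Rsad2 stood at 4645 and 1120 CPM in wtIDH1 and at 2693 and 1345 in mIDH1, and Ifitm3 at 1024 and 457 against 1442 and 2287 CPM, so that Ifitm3 was the higher in mIDH1 replicate 2, which gave 1791 of the neutrophils, and Rsad2 in the other 3 libraries. By mean level 19 members were highest in neutrophils, 14 in monocytes, 3 in dendritic cells (Ifi44, Ifi205 and Stat2) and 1 in microglia (Bst2). For Rsad2, Oasl2 and Rtp4 every neutrophil library exceeded every library of the other 7 classes, and for the other members the leading class overlapped at least 1 other class. Rsad2 ran from 1120 to 4645 CPM in neutrophils and from 285 to 1116 CPM in monocytes, the next class. Oasl2 ran from 754 to 1432 CPM in neutrophils against 231 to 641 CPM in monocytes. Mx1, a gene of a GTPase family, went the other way, with 0 to 12.9 CPM in neutrophils and 62.3 to 164 CPM in monocytes. Counts are from transcript ends, so these are shares of molecules rather than levels per length. Depth per cell also differed, with medians of 1551 to 2198 UMIs in neutrophils and 7062 to 9568 in monocytes. A higher share in neutrophils therefore need not be a higher count per cell.

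In CD4 T cells, here helper and regulatory T cells together, antiviral members were lower in mIDH1. The cluster with Foxp3 and Il2ra, markers of regulatory T cells, gave 32 and 20 of the class's cells in wtIDH1 and 28 and 11 in mIDH1. Of 31 members tested 8 fell and none rose, whereas 1.07% of all 7039 tested genes fell in this class, 3.31% rose and 4.38% changed in either direction. The fall covered an RNA-binding Ifit, an Oas enzyme, an RNA sensor, the viperin pair and members of the Ifi200, Trim and Schlafen families. The median log2 fold change (mIDH1 over wtIDH1, as for all fold changes here, after normalization) was -0.66 over the members and -0.016 over all genes. By CPM 27 of the 31 lay lower in both mIDH1 libraries than in both wtIDH1 libraries, against 39.1% of all genes, and 0 lay higher in both, against 15.1%. A member that did not pass is not shown to be unchanged, since a 2-fold change added to simulated sums was found in 39.7% of CD4 T genes.

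Rsad2 stood at 123 and 158 CPM in wtIDH1 and at 43.4 and 20.4 CPM in mIDH1, a log2 fold change of -1.75 ± 0.30 (SE; adjusted p = 0.00242, edgeR's quasi-likelihood test). Its partner Cmpk2 stood at 49.9 and 88.5 against 21.1 and 20.4 CPM (-1.45 ± 0.39, adjusted p = 0.0399). For both genes the groups did not overlap. Ifi204, a DNA-binding Ifi200 protein, fell furthest, from 79.4 and 69.5 to 11.8 and 23.8 CPM (-2.07 ± 0.39, adjusted p = 0.00497). Oas3 stood at 133 and 112 against 38.2 and 27.2 CPM (-1.65 ± 0.29, adjusted p = 0.0027). Ifit1 stood at 188 and 341 against 104 and 57.8 CPM (-1.37 ± 0.29, adjusted p = 0.00899). The wtIDH1 libraries differed more for Ifit1 than for Oas3, yet both lay above the mIDH1 libraries. The sensor Ifih1 stood at 105 and 96.9 against 35.5 and 40.8 CPM (-1.25 ± 0.29, adjusted p = 0.0181). Slfn5, a Schlafen protein that is interferon-induced in T cells, stood at 248 and 358 against 113 and 119 CPM (-1.17 ± 0.24, adjusted p = 0.00829). Trim30a stood at 390 and 377 against 174 and 143 CPM (-1.05 ± 0.21, adjusted p = 0.00777). For all 8 genes each mIDH1 library lay below each wtIDH1 library. The CD4 T sums held 982723 and 474638 UMIs in wtIDH1 and 760045 and 293942 in mIDH1. The lowest mIDH1 values, such as those of Ifi204, Rsad2 and Cmpk2, therefore rest on few UMIs.

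**Figure D2:**
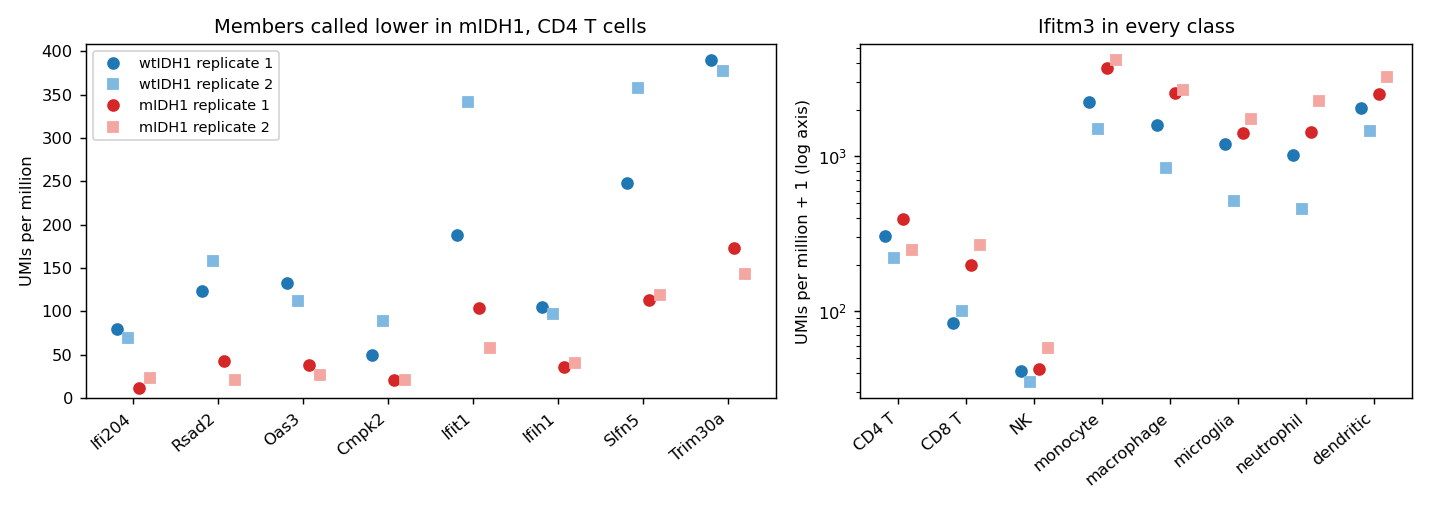
Left, CPM in CD4 T cells of the 8 members that fell (linear y axis, x axis gene), and right, Ifitm3 in every class (log y axis, CPM + 1), with 1 point per library. Every mIDH1 point on the left lies under both wtIDH1 points of its gene, and on the right the mIDH1 points lie above the wtIDH1 points in 7 of 8 classes, CD4 T cells being the exception.

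The direction in CD4 T cells was the same with each library left out, although the number of calls was not. Leaving out a library leaves 1 in its genotype, which is then assumed to vary like the 2 libraries of the other genotype, so calls without a library, here and in every class below, rest on the spread of 1 pair. Without wtIDH1 replicate 1 the median over the members was -0.70 and 28 of 32 values were negative, but 4 genes passed: Slfn5, Rsad2, Cmpk2 and Ifit1. Without wtIDH1 replicate 2, 3 passed (Ifi204, Oas3 and Rsad2) and 31 of 35 values were negative. Without mIDH1 replicate 1, 9 fell and 1 rose, and without mIDH1 replicate 2, 11 fell and 2 rose; Ifi27l2a rose in both cases. Rsad2 passed in all 13 alternatives that gave it an adjusted p, at 0.0183 or less. Within the main CD4 cluster, chosen as an alternative after the data were seen, 12 members passed, and its level over 34 members (without Ifitm3, Bst2 and Ifi27l2a) was 3807 and 4489 against 1647 and 1495 CPM. Markers of other cells in CD4 T sums did not all hold steady. The 11-gene NK list gave 1429 and 1454 CPM in wtIDH1 and 605 and 170 in mIDH1, with 0 of its genes at 0 in every library, and its part in the result was not tested. The monocyte list of 9 genes (961 and 1018 against 674 and 650 CPM) and the plasmacytoid dendritic cell list of 10 genes (392 and 394 against 249 and 225 CPM, 4 of them at 0 in every library) were lower in mIDH1 as well, and their part was not tested either. The macrophage list of 12 genes gave 233 and 263 against 264 and 214 CPM, and the neutrophil list 366 and 150 against 364 and 412 CPM. With free RNA subtracted 7 members passed. That subtraction was scaled by macrophage and neutrophil markers, so it does not address the NK, monocyte and plasmacytoid dendritic cell lists.

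CD8 T cells, the cytotoxic T cells, leaned the same way, but more of the difference lay in wtIDH1 replicate 1. Of 31 members tested 2 fell and 1 rose, against 4.49% of all genes called (1.06% lower and 3.43% higher), and the median was -0.61. By CPM 24 lay lower in both mIDH1 libraries and 1 lay higher, against 46.7 and 15.2% of all genes. Usp18 stood at 85.9 and 52.2 against 29.95 and 11.4 CPM (-1.34 ± 0.34, adjusted p = 0.0497 by edgeR). Ddx58 stood at 82.9 and 69.8 against 37.2 and 32.3 CPM (-0.86 ± 0.21, adjusted p = 0.0468 by edgeR). Ddx58 was also lost without wtIDH1 replicate 2. Both were lost without wtIDH1 replicate 1, where only Ifitm3 passed and the median was -0.21, and without wtIDH1 replicate 2 there were 9 calls and a median of -0.95. With library totals as the only scaling 6 fell and 1 rose. With doublets kept neither Usp18 nor Ddx58 passed, and 4 other members fell. In cells of at most 5% mitochondrial UMIs neither passed either, and Ifitm3 alone was called. Rsad2 (73.8 and 42.3 against 25.5 and 12.2 CPM) and Ifit1 (116 and 61.0 against 36.8 and 11.4 CPM) did not overlap between genotypes but missed the threshold.

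In NK cells 1 of 24 tested members fell and none rose, against 5.28% of all genes called (1.13% lower and 4.15% higher). By CPM 9 lay lower in both mIDH1 libraries and 1 higher, against 38.6 and 15.3% of all genes. Ifi44, a cytosolic GTP-binding protein, stood at 58.3 and 30.1 CPM in wtIDH1 and at 10.4 and 5.91 in mIDH1 (-2.35 ± 0.52, adjusted p = 0.00698, edgeR). It was lost without wtIDH1 replicate 1, where no member passed and the median turned from -0.39 to 0.19, and 8 passed without wtIDH1 replicate 2. 13 members were too low in NK cells to be tested, among them Ifit2, Ifit3, Oas3 and Mx1. The NK sums of mIDH1 held 383972 and 507224 UMIs, so the mIDH1 values of Ifi44 rest on few UMIs.

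Ifi44 was low in mIDH1 beyond NK cells. In monocytes it stood at 65.7 and 53.7 against 17.4 and 15.1 CPM (-1.65 ± 0.24, adjusted p = 0.00167, edgeR). That call held in all 13 alternatives that gave it an adjusted p, each left-out library included, with adjusted p up to 0.0396. In macrophages it stood at 62.3 and 44.1 against 33.5 and 15.5 CPM and in microglia at 46.5 and 41.4 against 20.4 and 9.23 CPM. Neither passed, although the groups did not overlap. In CD4 T cells it was too low to be tested, at 15.3 and 16.9 against 1.32 and 0 CPM. Dendritic cells, its highest class, overlapped at 160 and 61.7 against 63.2 and 24.3 CPM. Ifi44 was lower in both mIDH1 libraries than in both wtIDH1 libraries in 6 of 8 classes.

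Ifitm3 moved the opposite way. Both mIDH1 libraries exceeded both wtIDH1 libraries in 7 of 8 classes, and the rise passed in CD8 T cells, monocytes and macrophages. In monocytes it stood at 2235 and 1507 against 3738 and 4182 CPM (1.32 ± 0.32, adjusted p = 0.0209, edgeR). In macrophages it stood at 1602 and 834 against 2564 and 2676 CPM (1.40 ± 0.32, adjusted p = 0.0311, edgeR). In CD8 T cells it was far lower, at 82.9 and 99.2 against 199 and 268 CPM (1.63 ± 0.24, adjusted p = 0.0104, edgeR). The monocyte and macrophage calls were lost without wtIDH1 replicate 2 and without mIDH1 replicate 2, with values kept at 0.99 or more. The macrophage call was also lost within the Gpnmb and Apoe cluster (1.02, adjusted p = 0.126, edgeR). Markers of other myeloid cells moved with these values. In macrophage sums the monocyte list gave 3996 and 2630 against 5673 and 10181 CPM and the neutrophil list 985 and 821 against 1761 and 3825 CPM, and in monocyte sums the neutrophil list gave 1266 and 1250 against 2824 and 3695 CPM. Their part in the Ifitm3 result was not tested. The CD8 T call was lost when doublets were kept (0.60, adjusted p = 0.172). CD8 T sums of mIDH1 replicate 2 held 1750 CPM of the macrophage list against 249 to 514 in the other libraries. With free RNA subtracted the CD8 T value was 1.91 and passed. That subtraction pooled macrophage and neutrophil markers and took 1.62% of the CD8 T sum of mIDH1 replicate 2, the least of any library. C1qa, C1qb and C1qc stood there at 7.66% of their macrophage level, against 1.13 to 1.92% in the other libraries. The part of macrophage RNA in the CD8 T call was not tested. Neutrophils stood at 1024 and 457 against 1442 and 2287 CPM (1.87 ± 0.48, adjusted p = 0.0678), microglia at 1201 and 513 against 1410 and 1734 CPM (1.15 ± 0.39, adjusted p = 0.192) and dendritic cells at 2036 and 1460 against 2535 and 3256 CPM (0.96 ± 0.29, adjusted p = 0.136), none of which passed in edgeR. NK cells stood at 39.97 and 33.9 against 41.7 and 57.2 CPM, and CD4 T cells overlapped at 305 and 219 against 395 and 248 CPM. Of the last 400 bases of Ifitm3, 7.04% of 60-base windows also occur in Ifitm1 or Gm7676, so a small share of its reads could not be placed.

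**Figure D3:**
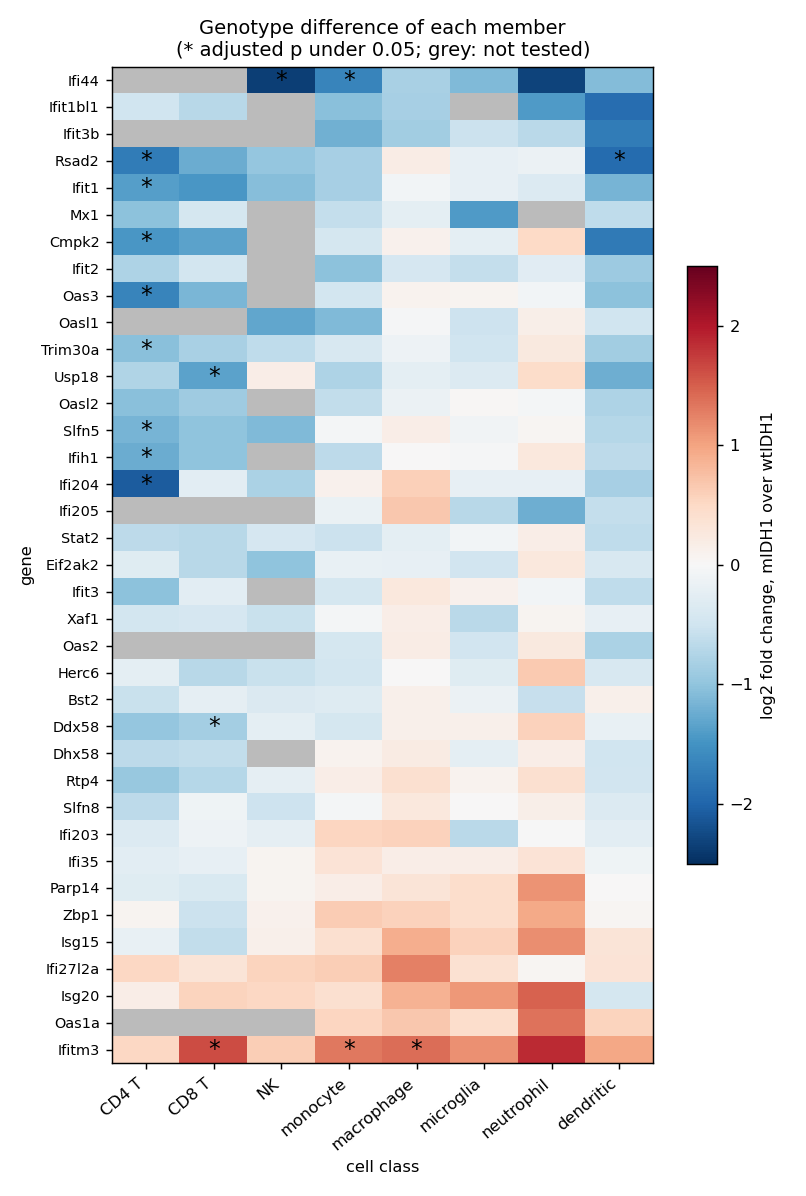
Log2 fold change of mIDH1 over wtIDH1 for each member (rows) in each class (columns), with blue for lower and red for higher in mIDH1, grey for not tested and * for adjusted p under 0.05 in edgeR. Blue fills most of the CD4 T, CD8 T and dendritic columns, while Ifitm3 in the bottom row is red in all 8.

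In monocytes Ifi44 fell and Ifitm3 rose among 37 tested members, against 8.13% of all genes called (2.34% lower and 5.79% higher), and the median was -0.40. By CPM 12 members lay lower in both mIDH1 libraries and 2 higher, against 45 and 15.8% of all genes. With library totals alone 10 fell and 1 rose. Without wtIDH1 replicate 1, 5 rose (Zbp1, Isg15, Oas1a, Isg20 and Ifitm3) and 1 fell, with a median of 0.24. Without wtIDH1 replicate 2, 12 fell and none rose, with a median of -0.67. The median thus changed sign with the wtIDH1 library used.

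Macrophages showed this too. Among 37 members Ifitm3 alone rose and none fell, against 9.41% of all genes called (7.04% higher and 2.37% lower), with a median of 0.16 (-0.14 with library totals alone, where 1 rose and 1 fell). By CPM 3 members lay lower in both mIDH1 libraries and 2 higher, against 55.3 and 15.3% of all genes. Against wtIDH1 replicate 2 alone 36 of 37 values were positive and 12 members rose, among them Ifi204, Ifi205, Zbp1, Isg15, Ifi27l2a, Ifit1 and Ifit3. Against wtIDH1 replicate 1 alone 28 of 37 were negative and 3 fell (Ifit2, Ifit1bl1 and Ifit3b). Both macrophage clusters showed the spread between wtIDH1 libraries. Over all members the Gpnmb and Apoe cluster stood at 10327 and 5119 against 7341 and 6650 CPM, an overlap. The cluster led by Pf4, Arg1 and Chil3 stood at 7859 and 3881 against 8960 and 10588 CPM, with both mIDH1 libraries above both wtIDH1 libraries. Without Ifitm3, Bst2 and Ifi27l2a that cluster overlapped too (5158 and 2432 against 4522 and 5498 CPM).

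In microglia, the resident phagocytes of the brain, edgeR called 0 of 36 members, against 1.33% of all genes (0.175% lower and 1.15% higher), with 4 at an unadjusted p under 0.05 and 0 called by DESeq2. The median was -0.18, and by CPM 15 lay lower in both mIDH1 libraries and 3 higher, against 38.5 and 12.5% of all genes. Mx1 stood at 62.7 and 69.96 against 24.7 and 12.3 CPM (-1.42 ± 0.36) without passing. Without wtIDH1 replicate 1 the median was 0.11 and 16 of 37 values were negative. The macrophage list in microglia sums gave 23581 and 27251 CPM in wtIDH1 and 58100 and 54726 in mIDH1. Its genes C1qa, C1qb and C1qc together stood at 13791 and 17467 against 17195 and 21804 CPM in microglia. In macrophages they stood at 5188 and 6503 against 5897 and 4047 CPM, so these C1q genes do not single out macrophage RNA in microglia. In microglia sums they overlapped between genotypes, whereas the whole macrophage list did not. The neutrophil list was 973 and 696 against 7136 and 8331 CPM in microglia sums. The part of either list was not tested. In neutrophils edgeR called 0 of 36, against 1.11% of all genes (0.665% higher and 0.448% lower), with 9 at an unadjusted p under 0.05 and 2 called higher by DESeq2. The median was 0.16 (-0.28 with library totals alone), and 5 members lay lower and 5 higher in both mIDH1 libraries, against 40.6 and 10.2% of all genes. Without wtIDH1 replicate 1, 34 of 35 values were positive, and without wtIDH1 replicate 2, 24 of 35 were negative. Few wtIDH1 neutrophils were available, and a 4-fold change added to simulated neutrophil sums was found in 29.5% of genes.

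Dendritic cells had 1 call among 37 members, against 0.573% of all genes (0.105% lower and 0.468% higher), and a median of -0.59. By CPM 20 lay lower in both mIDH1 libraries and 1 higher, against 39.5 and 14.2% of all genes. Rsad2 fell from 438 and 263 to 116 and 41.5 CPM (-1.92 ± 0.38, adjusted p = 0.0488, edgeR), and the groups did not overlap. The call was lost without either wtIDH1 library, where no gene of the whole class passed. Without wtIDH1 replicate 1 the median was -0.0044, and 19 of 37 values were negative. Without wtIDH1 replicate 2 the median was -0.98, and 35 of 37 values were negative. In cells of at most 5% mitochondrial UMIs the Rsad2 call was lost as well, and 1 other member fell. DESeq2 called 4 lower and 1 higher. Cmpk2 stood at 79.5 and 49.6 against 19.1 and 12.9 CPM (-1.76 ± 0.35), as far apart as Rsad2 without passing.

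The other genes set for description are given class by class, and none of the values in this and the next 2 paragraphs passed. Isg15 in CD4 T cells stood at 152 and 166 against 120 and 122 CPM (-0.19 ± 0.22), and in CD8 T cells at 119 and 52.8 against 51.0 and 40.2 CPM (-0.61 ± 0.32). In neutrophils it stood at 1213 and 686 against 1286 and 1696 CPM (1.17 ± 0.42). The groups did not overlap in these 3 classes, with opposite signs in T cells and neutrophils. It overlapped in NK cells (63.7 and 28.2 against 31.3 and 59.1 CPM, 0.12 ± 0.38, -0.071 with library totals alone) and in monocytes (904 and 393 against 632 and 819 CPM, 0.40 ± 0.35). It also overlapped in macrophages (457 and 168 against 284 and 654 CPM, 0.90 ± 0.51), microglia (279 and 208 against 240 and 366 CPM, 0.58 ± 0.34) and dendritic cells (731 and 334 against 510 and 627 CPM, 0.32 ± 0.34). Ifit3, an RNA-binding partner of Ifit1, stood at 60.04 and 50.6 against 21.1 and 30.6 CPM in CD4 T cells (-1.02 ± 0.36), without overlap, and at 39.6 and 16.4 against 23.4 and 12.2 CPM in CD8 T cells (-0.26 ± 0.40). In monocytes it was 243 and 82.3 against 99.4 and 106 CPM (-0.44 ± 0.37), and in macrophages 113 and 32.7 against 68.0 and 74.7 CPM (0.26 ± 0.46). In microglia it was 109 and 85.7 against 79.7 and 98.4 CPM (0.10 ± 0.33). wtIDH1 replicate 1 was likewise the highest library for Ifit3 in neutrophils (452 and 97.6 against 229 and 152 CPM, -0.077 ± 0.47) and dendritic cells (154 and 52.6 against 74.6 and 38.6 CPM, -0.63 ± 0.44). Its 3' end shares 16.7% of 60-base windows with Ifit3b, so the values of that pair are uncertain. With library totals alone Ifit3 turned negative in macrophages (-0.028) and microglia (-0.16).

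Rsad2 in the remaining classes overlapped between genotypes, at 72.4 and 32.0 against 36.5 and 15.8 CPM in NK cells (-0.96 ± 0.43) and at 1116 and 485 against 495 and 285 CPM in monocytes (-0.83 ± 0.35). It was 615 and 314 against 435 and 434 CPM in macrophages (0.19 ± 0.30), 453 and 316 against 354 and 197 CPM in microglia (-0.21 ± 0.34) and 4645 and 1120 against 2693 and 1345 CPM in neutrophils (-0.14 ± 0.52). In CD8 T cells its fold change was -1.24 ± 0.33. Zbp1, a sensor of Z-form nucleic acids, was higher in both mIDH1 monocyte libraries (356 and 211 against 400 and 358 CPM, 0.64 ± 0.27) and lower in both mIDH1 CD8 T libraries (145 and 91.0 against 74.4 and 59.4 CPM, -0.53 ± 0.23). It overlapped in CD4 T cells (158 and 122 against 117 and 150 CPM, 0.072 ± 0.24), NK cells (96.1 and 54.6 against 62.5 and 82.8 CPM, 0.10 ± 0.30) and macrophages (213 and 103 against 197 and 191 CPM, 0.58 ± 0.31). The same was so in microglia (201 and 119 against 188 and 172 CPM, 0.44 ± 0.33), neutrophils (267 and 115 against 266 and 253 CPM, 0.94 ± 0.38) and dendritic cells (230 and 132 against 175 and 149 CPM, 0.057 ± 0.29). Stat2, part of the factor that binds the ISRE, lay lower in both mIDH1 libraries in 5 classes. These were CD4 T cells (77.3 and 92.7 against 47.4 and 44.2 CPM, -0.66 ± 0.29), CD8 T cells (58.6 and 34.04 against 28.9 and 15.7 CPM, -0.69 ± 0.31) and monocytes (293 and 173 against 162 and 115 CPM, -0.54 ± 0.27). The others were macrophages (195 and 119 against 114 and 104 CPM, -0.23 ± 0.24) and dendritic cells (305 and 200 against 172 and 107 CPM, -0.63 ± 0.29). Stat2 overlapped in NK cells (64.8 and 24.5 against 33.9 and 29.6 CPM, -0.42 ± 0.41), microglia (163 and 133 against 135 and 95.3 CPM, -0.071 ± 0.31) and neutrophils (224 and 118 against 155 and 121 CPM, 0.16 ± 0.34). With library totals alone the positive values turned negative for Rsad2 in macrophages (-0.095), Zbp1 in CD4 T cells (-0.13), NK cells (-0.091) and dendritic cells (-0.16) and Stat2 in neutrophils (-0.28).

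Bst2 (tetherin), which holds budding virus at the cell surface, lay lower in both mIDH1 libraries in CD4 T cells (279 and 213 against 158 and 133 CPM, -0.55 ± 0.22), monocytes (636 and 412 against 387 and 334 CPM, -0.31 ± 0.26) and microglia (864 and 606 against 528 and 566 CPM, -0.15 ± 0.33). It overlapped in CD8 T cells (240 and 142 against 126 and 144 CPM, -0.22 ± 0.25), NK cells (134 and 71.6 against 75.5 and 71.0 CPM, -0.36 ± 0.29) and macrophages (762 and 529 against 587 and 562 CPM, 0.12 ± 0.23). Neutrophils (366 and 152 against 184 and 81.8 CPM, -0.57 ± 0.39) and dendritic cells (500 and 324 against 359 and 408 CPM, 0.12 ± 0.28) overlapped as well, and with library totals alone the macrophage and dendritic values were -0.17 and -0.11. Ifi27l2a had a positive fold change in every class as fitted, but the sign was not stable in 3 of them: library totals alone gave -0.44 in neutrophils, and leaving out single libraries took it as low as -0.14 in dendritic cells and -0.037 in CD8 T cells. It was 1024 and 410 against 1175 and 1602 CPM in macrophages (1.254 ± 0.41), where the groups did not overlap, and 1982 and 1161 against 1939 and 2173 CPM in monocytes (0.62 ± 0.31). In CD4 T cells it was 1705 and 1081 against 1893 and 1568 CPM (0.52 ± 0.23), and in CD8 T cells 1007 and 593 against 687 and 949 CPM (0.32 ± 0.29). In these 3 classes the libraries overlapped, as they did in NK cells (34.6 and 13.2 against 36.5 and 31.5 CPM, 0.55 ± 0.41), microglia (1081 and 624 against 790 and 1036 CPM, 0.38 ± 0.36) and dendritic cells (998 and 453 against 673 and 887 CPM, 0.33 ± 0.35). In neutrophils it was 903 and 666 against 567 and 589 CPM (0.043 ± 0.35), lower by CPM in both mIDH1 libraries. Across these 3 paragraphs the adjusted p of edgeR ran from 0.0569 (Rsad2, CD8 T cells) to 0.965 (Ifi27l2a, neutrophils).

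The difference between the genotype effects of 2 classes was tested itself. CD8 T cells against macrophages gave 8 members with a negative difference and none with a positive one among 37, against 2.54% of all genes called 1.74% negative and 0.797% positive. These were Ifit1, Rsad2, Cmpk2, Isg15, Oas3, Zbp1, Slfn5 and Ifi27l2a, whose differences ran from -1.51 (Ifit1) to -1.04 (Ifi27l2a). Both classes come from the same 4 libraries, and the excess of wtIDH1 replicate 1 over replicate 2 in the summed level was 1.54-fold in CD8 T cells and 2.005-fold in macrophages. 0 passed without wtIDH1 replicate 2 and 0 by DESeq2, with 19 at an unadjusted p under 0.05 by edgeR. Neutrophils against macrophages gave 1 call among 37, Ifi27l2a at -1.10 ± 0.32 (adjusted p = 0.045, edgeR), against 1.54% of all genes (0.605% positive and 0.935% negative). For Ifitm3 the differences were 0.13 ± 0.32 (CD8 T cells) and 0.64 ± 0.33 (neutrophils), and neither passed.

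Other genes of the pathway were counted from fixed lists. The 18 type I interferon ligand genes gave 3 and 12 UMIs in wtIDH1 and 32 and 7 in mIDH1, out of 19050343 to 26371638, and most were Ifnb1 (3 and 7 against 31 and 4). In macrophages Ifnb1 gave 2 and 0 UMIs in wtIDH1 and 28 and 2 in mIDH1, so that most came from mIDH1 replicate 1 alone, and no test was made. Ifng, the gene of interferon gamma, gave 1328 and 1223 against 1934 and 800 UMIs. The receptors and kinases Ifnar1, Ifnar2, Jak1 and Tyk2 were all tested in every class and none passed in edgeR. Among the transcription factors Irf8 fell in neutrophils, from 125 and 129 to 33.6 and 14.9 CPM (-2.02 ± 0.35). The macrophage list in neutrophil sums was lower in mIDH1 too, at 3643 and 4287 against 3106 and 1096 CPM. The monocyte list overlapped there, at 1647 and 1424 against 1245 and 1729 CPM. Macrophages held Irf8 at 420 and 488 against 350 and 248 CPM, and the part of macrophage RNA in the neutrophil value was not tested. In CD4 T cells none of the listed factors passed, with Irf9 at 122 and 126 against 77.6 and 54.4 CPM (-0.64 ± 0.25). Irf7 was high in wtIDH1 replicate 1, as the members were, with 865 and 311 against 407 and 256 CPM in monocytes.

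Among 6 feedback genes, Usp25, a ubiquitin protease, fell in all 3 lymphocyte classes (-0.84 ± 0.22 in CD4 T, -0.95 ± 0.21 in CD8 T and -1.18 ± 0.23 in NK cells). Socs3, a cytokine-induced inhibitor of JAK signalling, rose in monocytes (325 and 231 against 573 and 571 CPM, 1.27 ± 0.25), macrophages (162 and 96.4 against 217 and 249 CPM, 1.15 ± 0.26) and neutrophils (417 and 284 against 811 and 1024 CPM, 1.90 ± 0.39). Socs1 rose in monocytes (154 and 110 against 297 and 299 CPM, 1.41 ± 0.24). Of the 16 nucleic acid sensing genes up to 2 passed in any class: Ifi211 fell in CD4 T cells (-1.30 ± 0.35), Trim25 in NK cells (-1.04 ± 0.30) and Mavs and Dhx9 in macrophages (-0.86 ± 0.21 and -0.64 ± 0.16). Of the interferon gamma list 5 of 18 tested genes rose in monocytes and none fell, against 5.79% of all genes called higher there. Cxcl9, a T cell attractant, stood at 619 and 583 against 1683 and 1916 CPM (1.83 ± 0.27), and Serpina3g, Igtp, Gbp2 and Psmb8 were the others. In microglia Gbp2 (295 and 264 against 625 and 836 CPM, 1.67 ± 0.34) and Igtp (53.4 and 55.2 against 141 and 123 CPM, 1.55 ± 0.31) rose. Igtp also rose in neutrophils (1.42 ± 0.32), Serpina3g in CD8 T (1.33 ± 0.30) and NK cells (0.85 ± 0.23), and Psmb8 in NK cells (0.70 ± 0.19). Each of these genes passed an edgeR adjusted p of 0.05.

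Within a class the genes were unevenly spread over cells. With each cell thinned to 1000 UMIs, 47.1 and 38.3% of wtIDH1 CD4 T cells held at least 3 UMIs of 34 members (without Ifitm3, Bst2 and Ifi27l2a), against 26.3 and 19.4% in mIDH1. Exact 95% intervals, which cover counting error only, were 40.1 to 54.1, 29.6 to 47.6, 19.1 to 34.7 and 10.8 to 30.9%. Without thinning the shares were 86.5, 75.0, 84.2 and 80.9%, and the thinning left out 0 or 1 cell per library. In neutrophils the thinned shares were 85.3 and 67.0% against 75.9 and 71.1%, which overlap between genotypes. The top 10% of cells held 40.7 to 53.0% of the thinned UMIs of CD4 T cells and 29.7 to 38.1% of those of monocytes. The mean was 1.99 to 4.2 UMIs per cell in CD4 T cells and 6.68 to 12.2 in monocytes. A lower mean raises this share by counting alone, so the 2 shares do not rank the classes by unevenness. The variance over the mean was 3.36 to 11.1 in CD4 T cells and 7.79 to 9.58 in monocytes.

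Cells with an Isg15 UMI were richer in the other members. In thinned cells, those with Isg15 held 1.33 to 10.4 times as many UMIs of the 33 other members as those without it, across 8 classes and 4 libraries, and every ratio was above 1. The lowest, in CD4 T cells of mIDH1 replicate 1, rests on 9 cells with Isg15, and the highest, in NK cells of the same library, on 2. In neutrophils the ratios were 3.67, 2.93, 3.68 and 3.93, with Isg15 in 52.3, 36.4, 50.6 and 53.7% of thinned cells. In CD4 T cells Isg15 was read in 16.5 and 16.7% of wtIDH1 cells and in 6.77 and 11.9% of mIDH1 cells. Cells without Isg15 also differed there, at 2.86 and 2.36 UMIs of the other members in wtIDH1 and 1.84 and 1.49 in mIDH1. This split rests on a member itself and is a description.

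**Figure D4:**
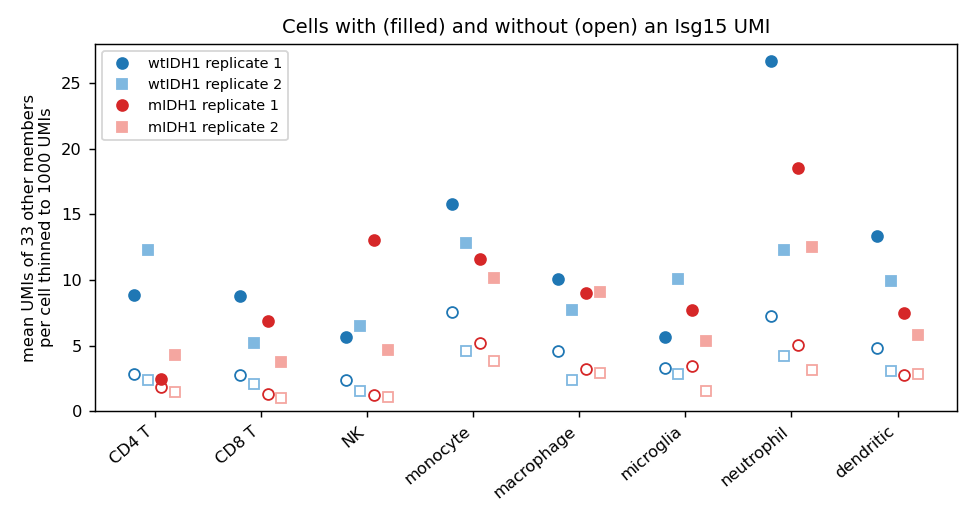
Mean UMIs of 33 other members per cell thinned to 1000 UMIs (y axis), by class (x axis) and library, in cells with an Isg15 UMI (filled) and without one (open). Each filled point lies above the open point of its library, from 1.33-fold in CD4 T cells to 10.4-fold in NK cells.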

How the data were processed

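The values deposited by the authors are raw UMI counts, with a matrix of genes by barcodes for each library. Cell Ranger 3.1 with STAR alignment to mm10 is named per the labels' protocols, and the file headers give version 3.0.0; an aggregation to equal depth that the labels describe is not visible in matrices of unequal depth. Cells with under 200 genes or over 10% mitochondrial UMIs were left out, as were the highest Scrublet scores, at 0.8% per 1000 barcodes. Clusters were found by the Leiden method (resolution 1.0, seed 0, scanpy 1.11.5, igraph 0.11.9) from 2000 variable genes, none of them a member or pathway gene, with 30 components and 15 neighbours per cell. A cluster was named when at least 3 fixed markers stood among its 60 top genes by fold, limits set after the data were seen, and its cells needed at least 2 UMIs of its markers. CD4 and CD8 T cells were split by Cd4 against Cd8a and Cd8b1 UMIs.

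UMIs were summed per class and library. The test was edgeR 4.0.16 under R 4.3.3 (quasi-likelihood, TMM normalization, default filter for low counts, Benjamini-Hochberg over all tested genes of the class, threshold 0.05), each class alone. Differences between classes were the interaction of class and genotype in a fit that blocks on library, and DESeq2 1.42.0 was an alternative. CPM are UMIs per 1000000 of the class sum, so fold changes after normalization differ from CPM ratios. Scaling by library totals alone lowered the median of all genes by 0.19 to 0.43 on the log2 scale, and directions it turned are given beside the result. An exact permutation test of 2 libraries against 2 has a smallest p of 0.333, and the labels do not say that libraries are separate animals, so p-values measure the spread between these libraries, which may be technical. Tests were tested on simulated data. Free RNA was scaled by C1qa, C1qb, C1qc, S100a8 and S100a9 and made up 0.955 to 4.66% of lymphocyte sums.

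Values are given for the members past the threshold in each class and, whatever the result, for Isg15, Ifit3, Rsad2, Ifitm3, Bst2, Ifi27l2a, Zbp1 and Stat2; other genes were named after their values were seen. The members and lists were chosen with earlier results of these data known. Near-identical 3' ends make Ifi205 (84.2% of 60-base windows shared with Ifi211 or Mndal), Oas1a (37.0%, Oas1g) and Slfn8 (21.9%, Slfn9 or Slfn10-ps) uncertain. Scripts ran under Python 3.11.15 with pandas 2.3.3, scipy 1.17.1 and numpy 2.4.6. Positions of genes follow GENCODE M21 (mm10). The result of 1 gene of the pathway lists is not reported here.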

Additional observations from a re-analysis of the deposited data

Results flagged for a closer look

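The genotype effect in CD8 T cells minus that in macrophages passed the interaction test for 8 members: Ifit1 (-1.51), Rsad2 (-1.48), Cmpk2 (-1.41), Isg15 (-1.35), Oas3 (-1.27), Zbp1 (-1.17), Slfn5 (-1.14) and Ifi27l2a (-1.04 on the log2 scale). What marked them is that the difference between the classes was itself tested and passed. In each case the CD8 T value was lower than the macrophage value; Isg15 was -0.61 in CD8 T cells and 0.90 in macrophages, and Rsad2 was -1.24 and 0.19. None of the 8 passed without wtIDH1 replicate 2, and Cmpk2 and Slfn5 did not pass without wtIDH1 replicate 1 either; without mIDH1 replicate 2, Isg15, Cmpk2 and Slfn5 did not pass. The difference between neutrophils and macrophages passed for Ifi27l2a (-1.10), which was 0.043 in neutrophils and 1.254 in macrophages, and it did not pass without either wtIDH1 library.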

How the results depend on the processing

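Counts of members called moved with the processing in most classes. Leaving out 1 library at a time gave 3 to 13 calls in CD4 T cells, 1 to 14 in CD8 T cells, 0 to 8 in NK cells, 1 to 12 in monocytes, 0 to 12 in macrophages, 0 to 3 in microglia, 0 to 7 in neutrophils, 0 to 20 in dendritic cells, 0 to 5 for neutrophils minus macrophages and 0 to 19 for CD8 T cells minus macrophages. Without a low-count filter the counts were 12 (CD8 T), 5 (NK), 9 (monocytes), 12 (macrophages), 2 (microglia), 5 (neutrophils), 12 (dendritic cells) and 0 (neutrophils minus macrophages). DESeq2 gave 3 (CD4 T; 5 others had no adjusted p), 0 (NK), 2 (neutrophils), 5 (dendritic cells) and 0 (CD8 T minus macrophages). Library totals as the only scaling gave 7 (CD8 T), 4 (NK), 11 (monocytes), 2 (macrophages), 1 (microglia), 1 (neutrophils), 2 (dendritic cells), 2 (neutrophils minus macrophages) and 5 (CD8 T minus macrophages). Cells of at most 5% mitochondrial UMIs gave 5 (CD4 T), 1 (CD8 T), 0 (NK), 8 (monocytes), 2 (macrophages) and 1 (neutrophils). With doublets kept there were 3 (NK), 1 (microglia) and 2 (neutrophils minus macrophages), and whole clusters gave 1 (microglia) and 2 (dendritic cells). With the members kept for clustering there were 13 (monocytes), 2 (macrophages), 2 (neutrophils minus macrophages) and 15 (CD8 T minus macrophages). Dendritic cells of the cDC2-like cluster alone gave 3. Chosen after the data were seen, single clusters gave 5 (CD8 T), 6 (monocytes) and 1 (microglia), and subtracting free RNA gave 6 in CD8 T cells. The cause of these shifts was not tested.

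The log2 ratio of the summed level was -0.45 in CD4 T cells (-0.71 with at most 5% mitochondrial UMIs, -0.65 with doublets kept). Without Ifitm3, Bst2 and Ifi27l2a it was -0.96 in CD4 T cells, -0.86 in CD8 T cells, -0.40 in monocytes, -0.40 in microglia and -0.77 in dendritic cells. Leaving out 1 library at a time gave -0.72 to -0.090 in CD8 T, -0.904 to -0.11 in NK, -0.34 to 0.47 in monocytes, -0.11 to 0.896 in macrophages, -0.35 to 0.14 in microglia, -0.59 to 0.66 in neutrophils and -0.61 to 0.16 in dendritic cells. Of the single genes, 2 changed direction with a call on one side of the change. Rsad2 in macrophages fell within the Gpnmb and Apoe cluster (-1.53, adjusted p = 0.0311, edgeR), and Slfn5 in CD8 T cells minus macrophages was 0.028 (main value -1.14) at the stricter mitochondrial limit. Values without a call turned sign too, 11 of them with library totals alone.

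The labels number the libraries 1 and 2 in both genotypes without saying what a number shares. With a replicate block the calls were 8 (CD4 T), 11 (CD8 T), 2 (NK), 13 (monocytes), 2 (macrophages), 0 (microglia), 3 (neutrophils), 11 (dendritic cells), 4 (neutrophils minus macrophages) and 11 (CD8 T minus macrophages). Same-numbered libraries deviated together with correlations of -0.19 to 0.10 across genes, so the numbers were not taken as pairs. At the depth of these sums, a 2-fold change added to simulated counts was found in 1.56% of genes in neutrophils, 9.38% in microglia and 51.6% in macrophages, and the cause of this order was not tested.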

Other observations

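Plasmacytoid dendritic cells, a strong source of type I interferon in infection, numbered 10, 20, 14 and 10 cells (wtIDH1 replicates 1 and 2, mIDH1 replicates 1 and 2), too few for a test. Over 34 members they stood at 7123 and 3095 CPM in wtIDH1 and at 1915 and 1045 in mIDH1, and Bst2, which these cells carry as a surface marker, gave 40.2% of their member UMIs. B cells, with 12, 16, 26 and 13 cells, stood at 5191 and 1527 against 1229 and 1030 CPM over the same genes. In both, wtIDH1 replicate 1 was again the highest library, and each mIDH1 library lay below each wtIDH1 library. T cells with neither or both of Cd4 and Cd8 UMIs, 355 in all, stood at 4659 and 3747 against 1523 and 2098 CPM, and here too the genotypes did not overlap.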
